A study of Mus musculus with 2 samples.

Results

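The 10 genes described here set the pace of the G1 phase of the cell cycle in mouse bone marrow. They are the D-type cyclins Ccnd1, Ccnd2 and Ccnd3, the kinases Cdk4 and Cdk6 that they activate, the E-type cyclins Ccne1 and Ccne2, and the kinase inhibitors Cdkn1b, Cdkn2c and Cdkn2d. They were taken by symbol from the 32286 features of the count matrices, and all 10 were found. Hematopoietic cells of primary bone marrow were profiled by droplet-based single-cell sequencing of transcript 3′ ends in 2 libraries, 1 per genotype. Both genotypes carried 1 copy of Mx1-Cre, a Cre recombinase under an interferon-inducible promoter. The control (Mx1Cre+/-;Rosa26+/+) had unaltered Rosa26 loci, while the second genotype, source of the MYC library, carried on both Rosa26 alleles LSL-MYC, a transgene for MYC that stays silent until Cre cuts out a stop cassette (Mx1Cre+/-;Rosa26LSL-MYC/LSL-MYC). Age, sex, strain, the number of animals pooled and any induction of Cre are not given in the sources used here. The study asked how expression in the marrow differs once hematopoietic stem cells overexpress MYC.

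In G1, D-type cyclins bind Cdk4 or Cdk6, and the active pairs phosphorylate the retinoblastoma protein family, which otherwise holds E2F transcription factors in check. Released E2F factors raise transcription of Ccne1 and Ccne2, whose proteins activate Cdk2 and take the cell into S phase. Cdkn2c (p18) and Cdkn2d (p19) belong to the INK4 family and bind Cdk4 and Cdk6 only, while Cdkn1b (p27) acts mainly on Cdk2 complexes. In blood formation Cdk6 is the kinase associated with stem and progenitor cells, and Ccnd3 with erythroid and lymphoid precursors.

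With 1 library per genotype there was no test and no p-value. Every interval below is a 95% interval for counting error only, and genotype cannot be told apart from animal or library preparation. Deposited totals were 131884603 unique molecular identifiers (UMIs) over 17073 barcodes for the control and 110012176 over 14496 for MYC. After filters and doublet removal, 14859 and 12514 cells were kept, with medians of 5333 and 6012.5 UMIs. The libraries shared 79 barcodes among kept cells. The feature named MYC had 0 UMIs in the control library and 289 in the MYC library (2.85 per 1000000). Of the 289, mature neutrophils held 153, granulocyte progenitors 7, stem or multipotent progenitors 5 and erythroid progenitors 3. In counts per 1000000 UMIs of a class (CPM), S100a8, a neutrophil transcript, stood at 94451 and 105455 CPM in mature neutrophils, but also at 8308 and 9958 CPM in T or NK cells and at 2860 and 3199 CPM in erythroid progenitors, which should lack it. Free RNA of this kind was not subtracted. In the sums over cells used here, fewer expressing cells and less RNA per cell cannot be told apart.

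Within each library, a gene's UMIs were added up over a class and given as CPM of that class. Where values stand in pairs, the control library comes first and the MYC library second, and log2 ratios are MYC over control. A UMI counts a transcript end whatever the length of the gene, so levels of different genes were set side by side without length scaling. Ccnd1, Ccnd2, Ccnd3, Cdk4, Cdk6 and Ccne2 overlap a gene on the opposite strand (Tspan31 for Cdk4, Ints8 for Ccne2), and whether counting used strand is not given in the sources used here. Cells were clustered without the 10 genes, and clusters were named from marker lists. Clusters 20 and 2 are kept by number because the naming rule gave them no name: cluster 20 was led by Ace, Adgre4 and MHC class II genes, and cluster 2 by Tmcc2, Slfn14 and other genes of late erythroid cells. In every named class compared, all listed markers were higher than in the remaining cells of the same library. Stem or multipotent progenitors, for example, held Mecom at 62.1 and 56.5 CPM against 0.608 and 0.417 CPM in all other cells. The megakaryocyte transcript Pf4 was also among the leading genes of that class. The comparison covered 12 classes with at least 100 cells per library.

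Of the 120 pairs of a gene and a class, 109 had at least 50 UMIs over both libraries and were compared. In 17 pairs the level was at least 1.5-fold higher in the MYC library, in 19 at least 1.5-fold lower, and in 73 it lay between. Over the 10 named classes the counts were 9 higher and 18 lower of 90 pairs, 16 and 12 with median-of-ratios scaling, and 9 and 11 of 70 pairs when each library was clustered on its own. The 11 pairs with fewer UMIs were Ccnd1 in 6 classes, Ccne1 in 3 and Ccne2 in 2, mostly lymphoid cells and basophils or mast cells. The counts are read against the share of all genes with at least 50 UMIs that passed the same fold in the same class. In stem or multipotent progenitors (190 and 177 cells) 0 of the 10 genes were higher and 1 lower, where 5.94% of all genes were higher and 12.7% lower. Granulocyte progenitors (516 and 455 cells) had 1 of 9 higher and 3 lower, against 4.36% and 25.2%. Immature neutrophils (2246 and 2144 cells) had 1 of 10 higher and 1 lower, against 8.36% and 18.2%. Mature neutrophils (4100 and 3321 cells) had 1 of 10 higher and 3 lower, against 8.43% and 22%. As shares of the genes compared, these counts lie near those of the whole transcriptome.

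Monocytes (1156 and 1581 cells) had 2 of 10 genes higher and 0 lower, where 8.33% of all genes were higher and 16.5% lower. Cluster 20 (421 and 261 cells) had 4 of 10 higher and 0 lower, against 17.3% and 17.7%. Basophils or mast cells (187 and 145 cells) had 1 of 8 higher and 2 lower, against 9.36% and 20.9%. Erythroid progenitors (280 and 103 cells) had 2 of 9 higher and 4 lower, against 9.07% and 20.7%, and erythroblasts (721 and 205 cells) had 1 of 10 higher and 1 lower, against 12.2% and 27.4%. Cluster 2 (462 and 277 cells) had 4 of 9 higher and 1 lower, but 43.5% of all genes were higher there and 9.72% lower. Mature B cells (578 and 141 cells) had 0 of 7 higher and 3 lower, against 6.77% and 30%, and T or NK cells (399 and 148 cells) had 0 of 7 past the fold either way, against 10.2% and 15.2%. The median log2 ratio over all genes was below 0 in 11 classes, between -0.31 in mature B cells and -0.05 in cluster 20, and 0.48 in cluster 2. A member at a ratio of 1 therefore stood above the middle of the transcriptome in all classes but cluster 2. The share of all genes whose interval excluded a ratio of 1 was not computed. The counts below of classes that differed beyond counting error therefore have no such share beside them.

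**Figure D1:**
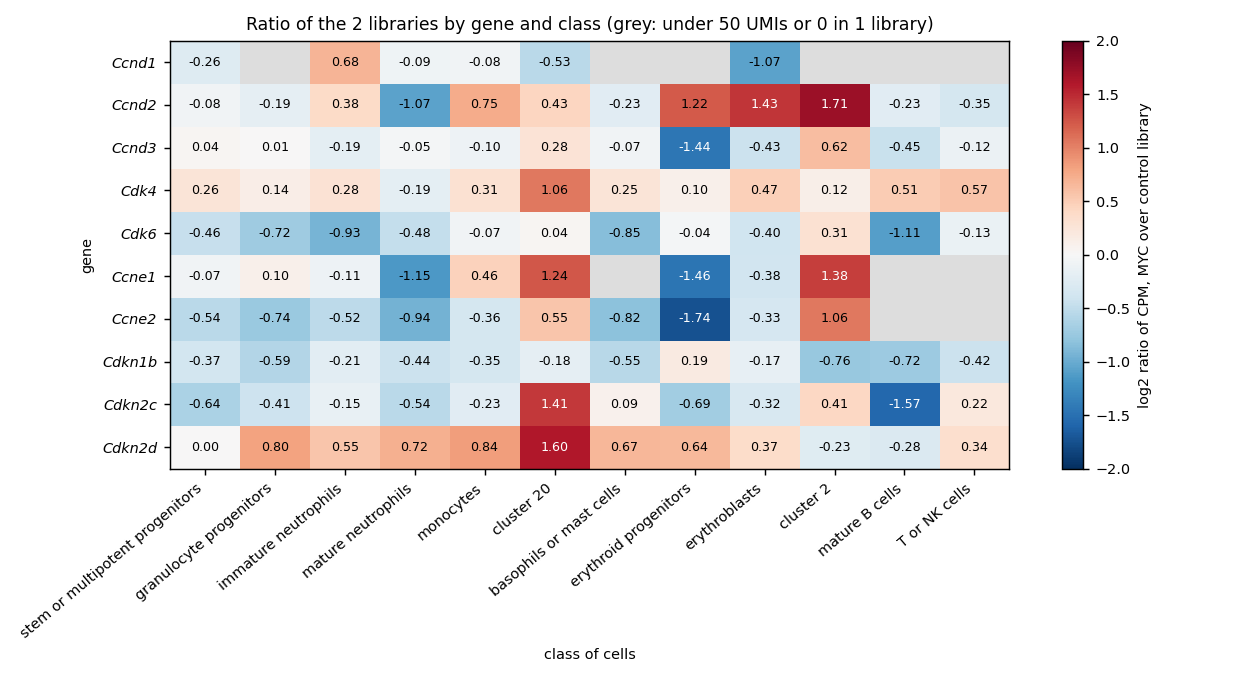
Log2 ratio of CPM, MYC over control library, for the 10 genes (rows) in 12 classes (columns), with the value in each field (grey where the libraries held under 50 UMIs together or 1 held 0). Cdkn2d is positive in most columns and Cdk6 and Cdkn1b negative in most, while the erythroid progenitor column holds both a positive value for Ccnd2 (1.22) and negative values for Ccnd3 (-1.44), Ccne1 (-1.46) and Ccne2 (-1.74).

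The INK4 inhibitor Cdkn2d (chromosome 9, 21288410 to 21291407, minus strand; here and below GRCm38 positions from GENCODE vM21) was the gene of the 10 with the most classes higher in the MYC library. Its level differed upward beyond counting error in 8 of 12 classes and downward in 0. Granulocyte progenitors of the control held it at 50.1 CPM and those of the MYC library at 87.3 CPM (log2 ratio 0.80, 0.64 to 0.96). In immature neutrophils the levels were 158 and 231 CPM (0.55, 0.49 to 0.61), and in mature neutrophils 162 and 267 CPM (0.72, 0.65 to 0.78). Monocytes had 96.3 and 172 CPM (0.84, 0.75 to 0.92) and basophils or mast cells 94.4 and 150.1 CPM (0.67, 0.37 to 0.97). The largest ratio was in cluster 20, with 39.9 and 121 CPM (1.60, 1.29 to 1.92). Cells were also split by division transcripts, with "many" meaning at least 0.5% of a cell's UMIs in a list of 40 S, G2 and M phase genes that holds none of the 10. In cluster 20 cells with many division transcripts made up 4.51% (control) and 19.5% (MYC library), and among its cells with few the log2 ratio was 1.19. Erythroid progenitors had a low level, 13.5 and 21.0 CPM (0.64, 0.19 to 1.09), and erythroblasts a high one, 203 and 262 CPM (0.37, 0.25 to 0.48). In erythroid progenitors S100a8 stood at 2860 and 3199 CPM, against 44669 and 50977 CPM over all kept cells. The part of free RNA in their Cdkn2d level was not tested. Stem or multipotent progenitors had 49.2 and 49.3 CPM, a log2 ratio with an interval from -0.30 to 0.31. Among their cells with few division transcripts the log2 ratio was 0.64. Mature B cells, T or NK cells and cluster 2 had intervals that included a ratio of 1.

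Cdkn2d was also read cluster by cluster. Of 21 Leiden clusters with at least 50 cells per library and 50 UMIs of the gene, 18 had a higher level in the MYC library, 12 of them at least 1.5-fold, and 3 a lower one. The 4 clusters of mature neutrophils differed in origin: clusters 0 and 11 came mostly from the control (1558 of its cells against 176, and 1140 against 66), cluster 14 came mostly from the MYC library (182 against 1450), and cluster 3 from both (1220 and 1629). Cdkn2d stood at 154 and 233 CPM in cluster 0, at 158 and 241 CPM in cluster 3, at 179 and 280.4 CPM in cluster 11, and at 142 and 307 CPM in cluster 14. In the classes with too few cells of the MYC library for the comparison, plasmacytoid dendritic cells (286 and 77 cells) had 84.4 and 186 CPM, and megakaryocytes (60 and 61 cells) 269 and 249.5 CPM. Megakaryocytes and erythroblasts had the highest levels in the control library, and mature neutrophils in the MYC library, followed by erythroblasts and megakaryocytes, where neighbours in that order did not differ beyond counting error.

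**Figure D2:**
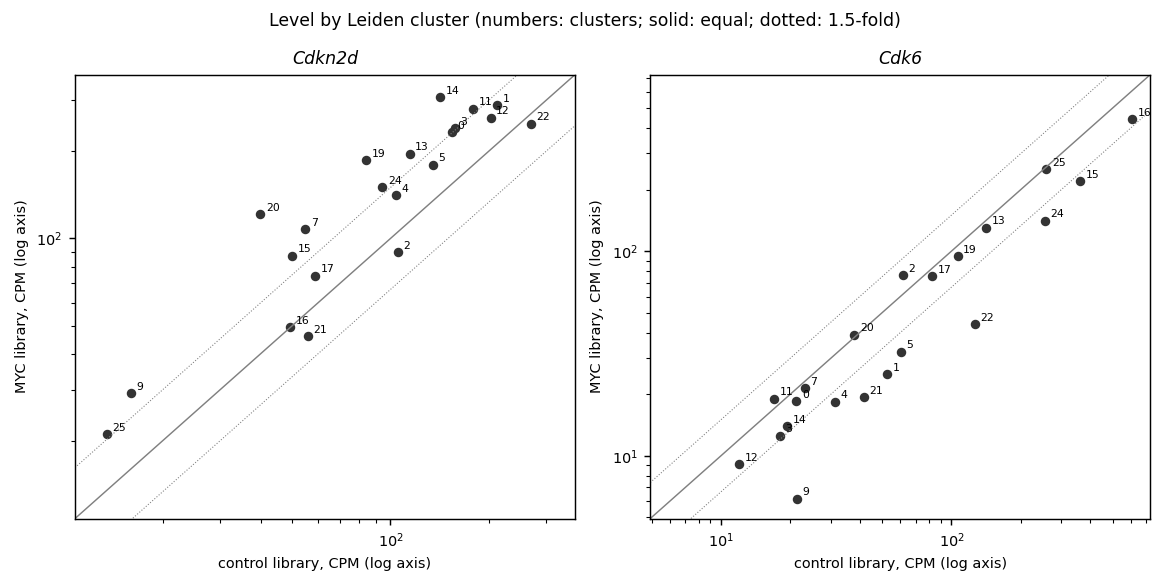
Level of Cdkn2d (left) and Cdk6 (right) in each Leiden cluster, control library on the horizontal and MYC library on the vertical axis, in CPM on log axes. The solid line marks equal levels and the dotted lines 1.5-fold. For Cdkn2d 18 of 21 clusters lie above the solid line, and for Cdk6 18 of 21 lie below it.

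Cdkn2c, the other INK4 gene of the set (chromosome 4, 109660876 to 109667189, minus strand), differed from Cdkn2d in direction. It was lower beyond counting error in 8 of 12 classes and higher in 1. Stem or multipotent progenitors had 24.6 and 15.8 CPM (log2 ratio -0.64, -1.15 to -0.14), granulocyte progenitors 26.7 and 20.1 CPM (-0.41), and immature neutrophils 52.4 and 47.3 CPM (-0.15). The median log2 ratios over all genes in these classes were -0.13, -0.30 and -0.21, in the same order. In the first 2 classes the share of cells with many division transcripts was also lower, at 46.3% and 28.2% in the stem or multipotent class and 59.7% and 36.9% in granulocyte progenitors (61.4% and 41.3% thinned to 2000 UMIs per cell, leaving out 5 and 7 cells). In immature neutrophils it was higher, at 44.1% and 49.4%, and in monocytes level, at 44.6% and 45.1%. In granulocyte progenitors with few such transcripts the log2 ratio of Cdkn2c turned to 0.15. The exception was cluster 20, with 11.1 and 29.4 CPM (1.41, 0.79 to 2.05), the cluster that also held more cells rich in division transcripts in the MYC library. Several of the small differences turned under other settings, among them those in immature neutrophils and monocytes. Across classes of the control the highest level was in erythroblasts, at 144 CPM, ahead of B progenitors at 76.7 CPM, an order that also changed at other clustering resolutions.

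Cdkn1b (chromosome 6, 134920401 to 134925513, plus strand), whose protein restrains Cdk2 in resting cells, was lower beyond counting error in 9 of 12 classes and higher in 0. In granulocyte progenitors it stood at 40.6 and 26.9 CPM (log2 ratio -0.59, -0.83 to -0.36), in mature neutrophils at 173 and 128 CPM (-0.44, -0.51 to -0.36), in monocytes at 77.4 and 60.8 CPM (-0.35), and in mature B cells at 125 and 75.6 CPM (-0.72, -1.17 to -0.30). Among mature neutrophils of cluster 3, which came from both libraries, the log2 ratio was -0.22. The ratio passed 1.5-fold in mature B cells, in granulocyte progenitors and in cluster 2, which had 387 and 228 CPM (-0.76, -0.97 to -0.56). Cluster 2 held the highest level in both libraries. Its cells differed between the libraries in other ways, with medians of 5746 and 1743 UMIs, S100a8 at 9602 and 18077 CPM and the globin Hbb-bt at 47522 and 31564 CPM, whose part in the ratio was not tested. Among its control cells, those with few division transcripts had 489 CPM and those with many 282 CPM, and in the MYC library the values were 305 and 121 CPM. Erythroid progenitors had low and similar levels, 29.9 and 34.0 CPM. Over the 3 inhibitors together, Cdkn2d made up 42.7% of their UMIs in control granulocyte progenitors and 65.0% in those of the MYC library, and 47.2% and 66.6% in mature neutrophils.

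Of the 2 kinases, Cdk6 (chromosome 5, 3341485 to 3531008, plus strand) was lower in the MYC library beyond counting error in 6 of 12 classes and higher in 0. The highest level in both libraries was in stem or multipotent progenitors, at 608 and 441 CPM (log2 ratio -0.46, -0.56 to -0.37). Granulocyte progenitors had 361 and 219.7 CPM (-0.72, -0.80 to -0.64), immature neutrophils 46.6 and 24.5 CPM (-0.93, -1.07 to -0.79), and mature neutrophils 18.7 and 13.4 CPM (-0.48, -0.73 to -0.24). In both libraries the level was lower at each later stage of the neutrophil lineage, and at each stage lower in the MYC library. In mature neutrophils Hbb-bt stood at 327 and 209 CPM, against 3111 and 1336 CPM over all kept cells. The part of free RNA in the low Cdk6 levels of that stage was not tested. Basophils or mast cells had 254 and 141 CPM (-0.85, -1.10 to -0.61) and mature B cells 41.5 and 19.3 CPM, the latter on 13 UMIs in the MYC library. Monocytes, at 105 and 100.4 CPM, and erythroid progenitors, at 258 and 251 CPM, had intervals that included a ratio of 1. In granulocyte progenitors the ratio was -0.86 among cells with many division transcripts and -0.75 among the others. In erythroid progenitors with few division transcripts it was -0.78.

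Cdk4 (chromosome 10, 127063534 to 127067920, plus strand), the partner kinase, leaned the other way. It was higher beyond counting error in 7 of 12 classes and lower in 0, and in the classes as a whole only cluster 20 passed 1.5-fold, with 31.2 and 65.0 CPM (log2 ratio 1.06, 0.68 to 1.45). Stem or multipotent progenitors had 187 and 223 CPM (0.26, 0.11 to 0.40), granulocyte progenitors 132 and 145 CPM (0.14, 0.03 to 0.25), monocytes 107 and 133 CPM (0.31, 0.23 to 0.40), and T or NK cells 51.7 and 76.7 CPM (0.57, 0.12 to 1.005). Erythroid progenitors had the highest level in both libraries, at 238 and 255 CPM, and mature neutrophils the lowest, at 7.16 and 6.28 CPM. Cdk4 made up 26.7% of the UMIs of the 2 kinases in granulocyte progenitors of the control and 39.8% in those of the MYC library, and 27.1% and 46.2% in immature neutrophils. Among cells with few division transcripts the log2 ratio was larger, at 1.14 in immature neutrophils and 0.76 in monocytes, against 0.0008 and 0.12 among those with many. The small differences in granulocyte progenitors and monocytes each turned under 1 other setting. That in erythroblasts, at 54.3 and 75.3 CPM, turned with under 5% mitochondrial UMIs (log2 ratio -0.013) and at Leiden resolution 2 (-0.67). Of 18 clusters compared, 16 had a higher Cdk4 level in the MYC library.

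The promoters of Cdk4, Cdk6 and Cdkn2d are shown because these genes lay on opposite sides of a ratio of 1 in most classes. They are the 250 bases before the start site in RefSeq (GRCm38.p6), which listed 9 promoters for 7 of the 10 genes. Capitals mark CACGTG, the E-box that MYC and MAX bind and other factors also read, and TTTNNCGC, an E2F-type motif, each searched on both strands. The windows are chr10:127063285-127063534 (plus strand) for Cdk4, chr5:3343643-3343892 (plus strand) for Cdk6 and chr9:21291210-21291459 (minus strand) for Cdkn2d.
Cdk4: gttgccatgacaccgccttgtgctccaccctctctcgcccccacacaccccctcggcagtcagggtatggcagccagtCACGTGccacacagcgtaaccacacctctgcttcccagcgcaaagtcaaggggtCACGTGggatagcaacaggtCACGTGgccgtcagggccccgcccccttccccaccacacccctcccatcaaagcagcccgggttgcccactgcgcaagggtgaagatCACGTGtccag
Cdk6: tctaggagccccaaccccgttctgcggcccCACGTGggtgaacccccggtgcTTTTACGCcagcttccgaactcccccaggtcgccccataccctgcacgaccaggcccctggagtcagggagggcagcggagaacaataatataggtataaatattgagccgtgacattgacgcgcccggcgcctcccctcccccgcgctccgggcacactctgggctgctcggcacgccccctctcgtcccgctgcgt
Cdkn2d: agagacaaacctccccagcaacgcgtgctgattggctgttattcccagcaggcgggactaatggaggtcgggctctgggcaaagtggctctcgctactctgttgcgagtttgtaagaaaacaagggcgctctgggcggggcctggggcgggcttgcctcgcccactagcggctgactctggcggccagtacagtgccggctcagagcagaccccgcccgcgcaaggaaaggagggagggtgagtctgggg

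Cdk4 held 4 copies of CACGTG, whose first bases lie 172, 118, 98 and 11 bases before the start site. Among 32851 RefSeq promoter windows of 300 bases, 7.15% held at least 1 copy and 8 windows (0.0244%) held 4 or more. Cdk6 held 1 copy of CACGTG, 220 bases before its start, and 1 match to TTTNNCGC, which 5.17% of windows held. Cdkn2d held neither, nor did the windows of Ccnd3, Ccne1 and Cdkn1b, and 1 of the 2 windows of Cdkn2c held CACGTG after the start site. A match describes the letters of the window and says nothing of binding in these cells.

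**Figure D3:**
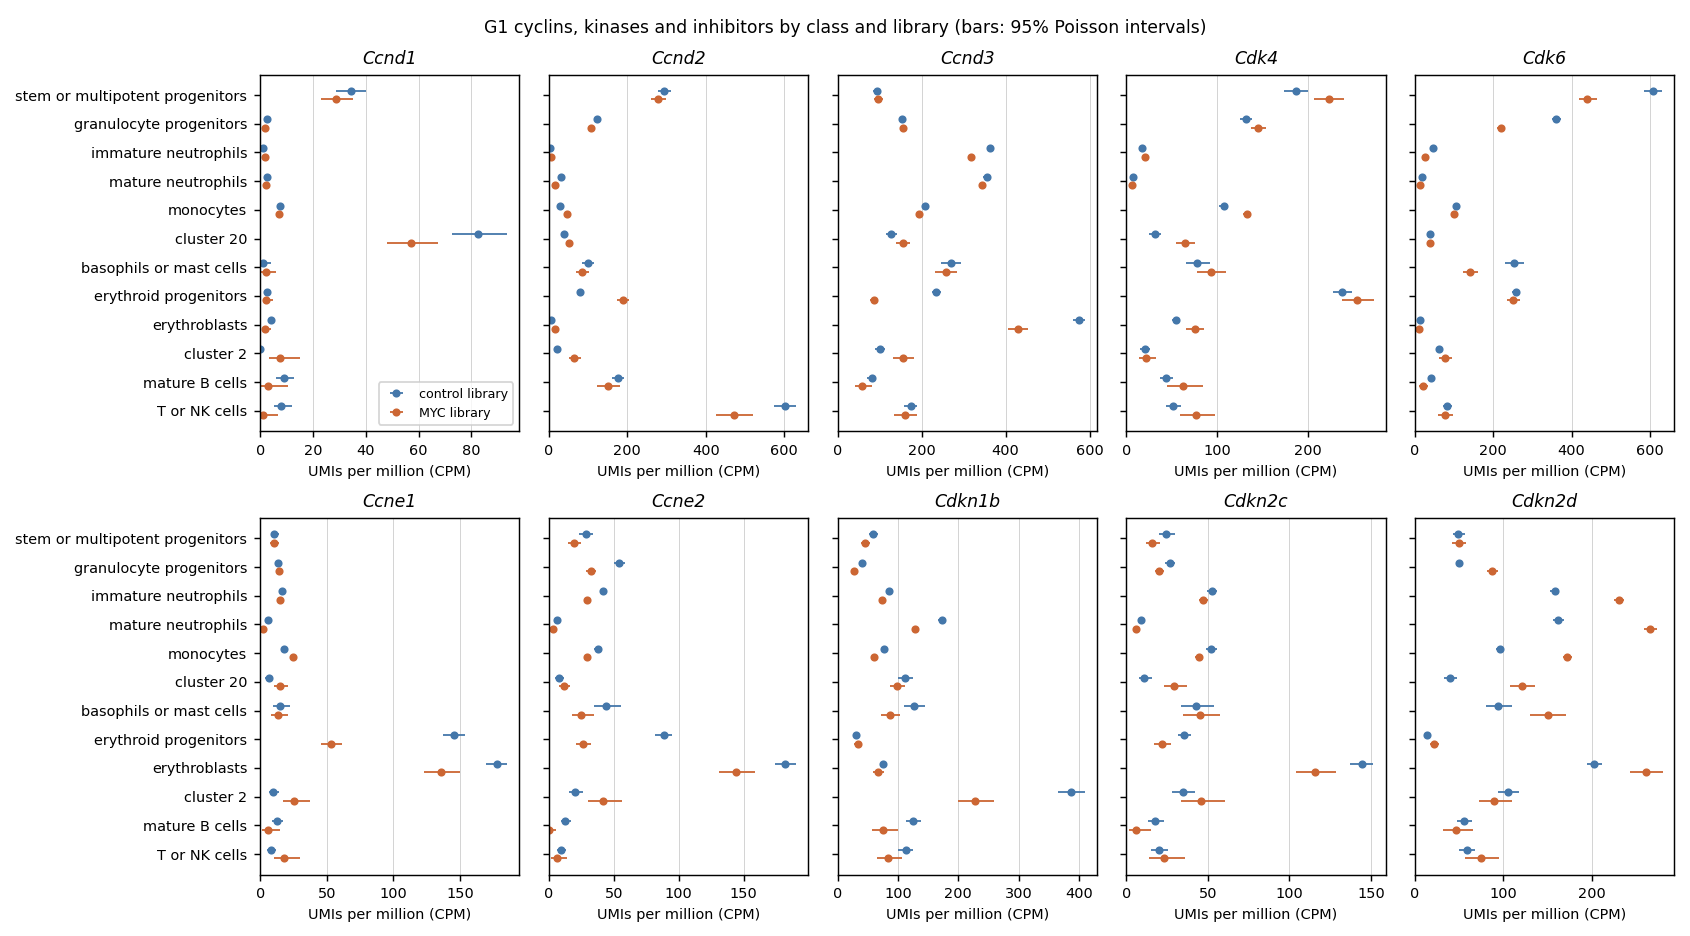
CPM of each gene (panels) in the 12 classes, with 1 point per library and 95% Poisson intervals. Cdk6 reaches 608 and 441 CPM in stem or multipotent progenitors and Ccnd3 576 and 429 CPM in erythroblasts, and the intervals of the libraries lie apart for Cdkn2d in neutrophils and for Ccnd2, Ccnd3, Ccne1 and Ccne2 in erythroid progenitors, among others.

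The mix of D-type cyclins differed by lineage. Ccnd3 (chromosome 17, 47505051 to 47599691, plus strand) made up 98.8% of D-type cyclin UMIs in immature neutrophils of the control and 98.1% in those of the MYC library, and 98.2% and 95.8% in erythroblasts. Its highest level was in erythroblasts, at 576 and 429 CPM, a place that B progenitors took at Leiden resolutions 0.5 and 2. In the neutrophil lineage it differed little, with 154 and 156 CPM in granulocyte progenitors, 363 and 317 CPM in immature and 356 and 345 CPM in mature neutrophils. Ccnd2 (chromosome 6, 127125162 to 127152193, minus strand) was the main D-type cyclin of stem or multipotent progenitors, with 69.6% and 69.0% of these UMIs, and of T or NK cells, with 76.8% and 74.6%. Its levels were 294 and 279 CPM in the former (log2 ratio -0.08, -0.20 to 0.05) and 600.4 and 471 CPM in the latter (-0.35, -0.51 to -0.19). Macrophages (20 and 630 cells) had the highest level of Ccnd2 in the MYC library, at 1030.1 CPM. This class was not among those compared, and its markers were mixed. The C1q genes and Adgre1 were higher than in other cells, but Vcam1 was lower (0 and 6.04 against 37.9 and 28.3 CPM). Mrc1 was lower in the MYC library (2.36 against 3.13 CPM). In the control clustered on its own, a cluster of 194 cells was named macrophages. Plasma cells (246 and 85 cells) had 227 and 519 CPM.

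Ccnd2 also differed in the neutrophil and monocyte classes, in a direction that depended on the clusters counted. Mature neutrophils had 31.2 and 14.8 CPM (log2 ratio -1.07, -1.29 to -0.86). In the control, 436 of the 535 UMIs came from cluster 0, which held 88.2 and 71.0 CPM and came mostly from that library. In the MYC library cluster 0 gave 50 of 264 UMIs and cluster 14 gave 124. In cluster 3, shared by the libraries, the level was 2.76 and 8.57 CPM, and the log2 ratio turned to 1.63. Free RNA could give such levels, since the globin Hbb-bt stood at 327 and 209 CPM in mature neutrophils against 3111 and 1336 CPM over all kept cells, so no change is read from cluster 3. By the same measure, the 14.8 CPM of mature neutrophils as a whole in the MYC library is not clearly above free RNA. Monocytes had 28.1 and 47.2 CPM (0.75, 0.59 to 0.91), a ratio that also turned when the libraries were clustered separately. In granulocyte progenitors the levels were 123 and 109 CPM (-0.19), a ratio that turned to 0.63 with under 5% mitochondrial UMIs and to 0.11 with median-of-ratios scaling.

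Ccnd1 (chromosome 7, 144929931 to 144939925, minus strand) was high in few classes. Plasmacytoid dendritic cells of the control had 570.04 CPM, where Ccnd1 made up 67.5% of D-type cyclin UMIs, and those of the MYC library 229 CPM and 44.5%, on 77 cells. Markers of this class also differed, with Siglech at 1925 and 869 CPM and Ccr9 at 746 and 307 CPM. Pacsin1 and Tcf4 were lower too, and Cox6a2 was higher, at 642 and 1029 CPM. At resolution 0.5 the class held 218 and 41 cells. The part of these differences in the Ccnd1 levels was not tested. Among control classes of at least 50 cells cluster 20 had the next highest Ccnd1 level, 82.5 CPM, against 57.1 CPM in the MYC library (log2 ratio -0.53, -0.85 to -0.22). Macrophages of the MYC library had 118 CPM, and the 20 control macrophages 132 CPM (73.8 to 217) on 15 UMIs. Stem or multipotent progenitors had 34.2 and 28.5 CPM, and megakaryocytes 21.5 and 20.2 CPM on 8 and 6 UMIs. Every other named class was below 11 CPM in both libraries, and 6 of the 12 classes fell short of 50 UMIs.

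**Figure D4:**
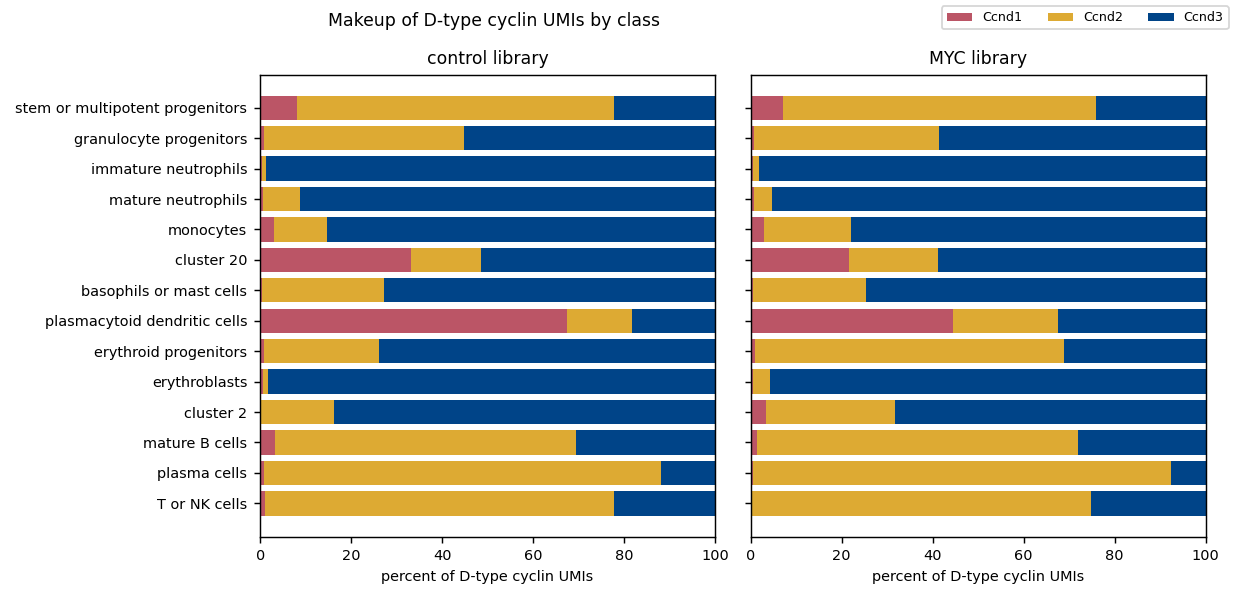
Percent of D-type cyclin UMIs from Ccnd1, Ccnd2 and Ccnd3 in 14 classes, control library on the left and MYC library on the right. Immature neutrophils and erythroblasts are almost all Ccnd3, stem or multipotent progenitors, plasma cells and T or NK cells mostly Ccnd2, and erythroid progenitors go from 25.3% to 67.9% Ccnd2.

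The E-type cyclins were highest in erythroid cells, where division is fast before the nucleus is lost. Ccne1 (chromosome 7, 38097984 to 38107534, minus strand) stood at 177 and 136 CPM in erythroblasts and Ccne2 (chromosome 4, 11191351 to 11204779, plus strand) at 182 and 144 CPM. The direction between the libraries in erythroblasts turned when clusters were drawn at resolution 2 or in each library alone. Outside the erythroid lineage Ccne2 exceeded Ccne1 in dividing myeloid classes: granulocyte progenitors of the control had 54.2 CPM of Ccne2 and 13.4 CPM of Ccne1. Ccne2 was lower in the MYC library beyond counting error in 8 of 10 classes compared, with 54.2 and 32.5 CPM in granulocyte progenitors (log2 ratio -0.74, -0.95 to -0.53), 41.6 and 29.0 CPM in immature neutrophils (-0.52, -0.66 to -0.38) and 44.3 and 25.02 CPM in basophils or mast cells (-0.82, -1.44 to -0.23). In granulocyte progenitors, whose share of cells with many division transcripts differed as given above, the ratio was -1.10 among those cells and -0.31 among the others. In immature neutrophils and monocytes the direction turned among cells with few division transcripts, to log2 ratios of 1.04 and 0.49. Ccne1 had intervals that included a ratio of 1 in 2 of these classes, with 13.4 and 14.4 CPM in granulocyte progenitors (0.10, -0.25 to 0.46) and 16.1 and 14.98 CPM in immature neutrophils (-0.11, -0.31 to 0.10). In monocytes they pointed in opposite directions, Ccne1 at 17.7 and 24.4 CPM (0.46, 0.26 to 0.67) and Ccne2 at 37.6 and 29.4 CPM (-0.36, -0.51 to -0.20).

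In erythroid progenitors 2 of the 9 genes compared were at least 1.5-fold higher and 4 lower, where 9.07% of all genes were higher and 20.7% lower. Ccnd2 stood at 80.4 and 188 CPM (log2 ratio 1.22, 1.07 to 1.38), and Ccnd3 at 235 and 86.3 CPM (-1.44, -1.63 to -1.27). Ccnd2 made up 25.3% (23.7 to 27.0) of these UMIs in the control and 67.9% (64.8 to 70.9) in the MYC library. Ccne1 had 145 and 52.9 CPM (-1.46, -1.69 to -1.23), Ccne2 88.3 and 26.5 CPM (-1.74, -2.07 to -1.42), and Cdkn2c 35.5 and 21.9 CPM (-0.69, -1.08 to -0.32). The kinases differed least, as given above. Ccnd2 stood at 6.29 and 16.9 CPM in erythroblasts (1.43, 0.88 to 1.97) and at 19.8 and 64.9 CPM in cluster 2 (1.71, 1.18 to 2.24), on at most 69 UMIs per library. The level in control erythroblasts is near what free RNA could give, since S100a8 stood there at 4001 CPM against 44669 CPM over all kept cells, and Ccnd2 at 6.29 against 76.1 CPM. In those of the MYC library S100a8 stood at 4576 CPM against 50977 CPM, and Ccnd2 at 16.9 (12.6 to 22.1) against 100.02 CPM, a larger share than that of S100a8. In cluster 2 S100a8 was also higher in the MYC library, at 9602 and 18077 CPM, and the part of free RNA in these ratios was not tested.

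The cells of this class also differed in their division transcripts and markers. Cells with many division transcripts made up 87.1% (82.6 to 90.8) of the class in the control but 39.8% (30.3 to 49.9) of that in the MYC library. With each cell thinned to 2000 UMIs, leaving out 28 and 5 shallower cells, the shares were 86.1% and 46.9%. The marker Car1 stood at 1384 and 3304 CPM and Klf1 at 288 and 182 CPM. Many cells lay near the threshold, since 194 of the 280 cells from the control, and 93 of the 103 others, had between 0.25% and 1% of their UMIs in the list. Among cells with many such transcripts Ccnd3 had 253 and 142 CPM (log2 ratio -0.83), Ccne1 154 and 65.6 CPM (-1.23), Ccne2 94.5 and 40.9 CPM (-1.21) and Ccnd2 68.9 and 119.5 CPM (0.80). Among cells with few the log2 ratios were -0.66, -0.61, -0.99 and 0.35. These 4 directions were present on both sides of the split, each smaller than in the class as a whole. That of Cdkn2c was not, with -0.44 among cells with many division transcripts and 0.089 among those with few. The part of the marker differences in these ratios was not tested.

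Within a class and library, cells with many division transcripts were then set against the others. Between 0.25% and 1% lay 950 of 2246 control immature neutrophils and 1276 of 2144 in the MYC library. In immature neutrophils Cdkn2c followed division most closely. In control immature neutrophils it stood at 81.9 CPM in cells with many division transcripts and at 9.43 CPM in the others (log2 ratio 3.12, 2.82 to 3.44), and in those of the MYC library at 69.5 and 13.6 CPM (2.35, 2.09 to 2.62). Monocytes gave 81.2 and 12.6 CPM in the control (2.69) and 70.6 and 13.4 CPM in the MYC library (2.40). Cdkn2d was also higher in these cells, with 199 and 99.3 CPM in control immature neutrophils (interval of the log2 ratio 0.90 to 1.11) and 289.6 and 142 CPM in those of the MYC library (1.02, 0.94 to 1.11). Its difference between the libraries was present on both sides of the split, at log2 ratios of 0.54 and 0.52. Ccnd3 hardly differed in this class, with 360.2 and 366 CPM in the control.

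The E-type cyclins differed less across this split in the MYC library. In immature neutrophils Ccne2 had 61.6 CPM in control cells with many division transcripts and 12.4 CPM in the others (log2 ratio 2.31, 2.04 to 2.59), and 31.3 and 25.6 CPM in the MYC library (0.29, 0.07 to 0.52). Ccne1 had 23.5 and 5.36 CPM in the control (2.13, 1.72 to 2.58) and 18.1 and 10.3 CPM in the MYC library (0.82, 0.48 to 1.16). In monocytes the log2 ratios of Ccne2 were 1.91 and 0.86, and those of Ccne1 2.17 and 0.92. These intervals did not overlap between the libraries, in a comparison that was not tested. The direction in monocytes of both libraries, and in immature neutrophils of the MYC library, turned when the division threshold was raised to 1%. In erythroid progenitors of both libraries Ccnd3 was higher and Ccnd2 lower in cells with many division transcripts, with log2 ratios of 1.66 and -1.40 in the control and 1.48 and -0.95 in the MYC library.

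**Figure D5:**
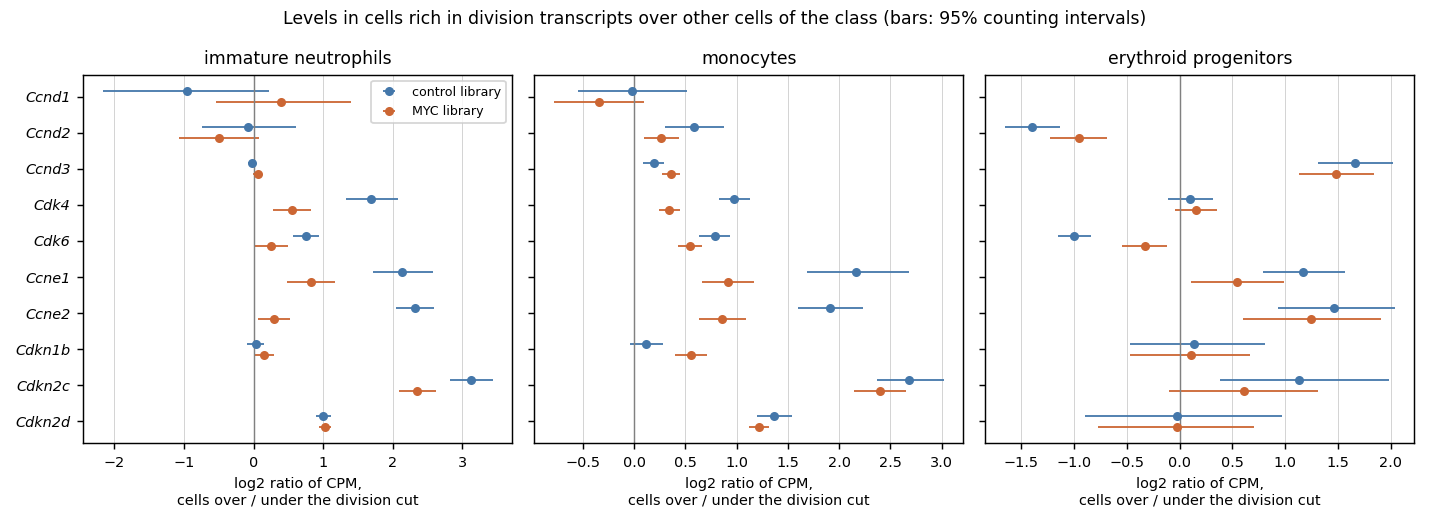
Log2 ratio of CPM in cells with at least 0.5% of UMIs in division genes over the other cells of the class, for each gene and library, with 95% counting intervals (estimates with wider intervals, such as Ccnd1 in erythroid progenitors, are left out). Cdkn2c lies farthest to the right in immature neutrophils (3.12 and 2.35), and the library points part most for Ccne2 (2.31 and 0.29).

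Beyond the 10 genes, a list of 28 other genes of the G1 to S pathway was read in the same classes. In erythroid progenitors 11 of the 25 with at least 50 UMIs were at least 1.5-fold lower and 1 higher, where 20.7% of all genes were lower and 9.07% higher, with a median log2 ratio of -0.44 against -0.17 over all genes. The lower ones included the retinoblastoma family genes Rb1 (66.3 and 35.5 CPM), Rbl1 (59.7 and 32.8 CPM) and Rbl2 (27.6 and 11.7 CPM), the activator E2f2 (58.2 and 20.1 CPM), and Skp2 (27.4 and 13.2 CPM), a ubiquitin ligase subunit that removes p27. Cells with many division transcripts made up 87.1% and 39.8% of this class, and the list was not split by them. The gene that was higher was Cdkn1a, which encodes p21, the inhibitor induced by p53. It stood at 0.820 CPM on 7 UMIs in the control and 16.8 CPM on 56 UMIs in the MYC library (log2 ratio 4.36, 3.22 to 5.74). In erythroblasts Cdkn1a stood at 1.18 and 35.7 CPM (4.91, 4.08 to 5.87), beside 7 of 24 list genes lower and 2 higher, where 27.4% of all genes were lower and 12.2% higher.

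In the neutrophil lineage Cdk2, the kinase of the E-type cyclins, was lower in all 3 classes: 56.2 and 33.4 CPM in granulocyte progenitors (log2 ratio -0.75, -0.96 to -0.55), 68.9 and 44.7 CPM in immature neutrophils (-0.62, -0.74 to -0.51), and 27.8 and 17.9 CPM in mature neutrophils (-0.64, -0.85 to -0.43). Granulocyte progenitors had 8 of 24 list genes lower and 1 higher, against 25.2% and 4.36% of all genes. The higher one was again Cdkn1a, at 2.70 and 6.41 CPM (1.25, 0.58 to 1.95). The lower ones there included Rb1, Rbl1, Rbl2, E2f3, E2f7, Cdc25a and Skp2. Monocytes had 5 of 25 lower and 1 higher, against 16.5% and 8.33% of all genes, the higher one being Cdkn1a at 25.3 and 38.3 CPM (0.60, 0.43 to 0.77). In erythroblasts, granulocyte progenitors and monocytes the shares of the list lie near those of all genes. In cluster 20 the list had 3 of 22 genes higher and 0 lower, against 17.3% and 17.7% of all genes. The 3 were Cks1b at 25.5 and 109 CPM, Ccna2 at 22.5 and 62.1 CPM and E2f8 at 15.1 and 37.3 CPM, all genes known to be higher in dividing cells. Cluster 2 had 7 of 16 higher, where 43.5% of all genes were, and 4 lower, among them Tfdp2, a dimer partner of E2F factors, at 1155 and 442 CPM.

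Genes with the most similar levels were sought among 5404 genes whose mean level reached 20 CPM, over 28 points of the named classes in both libraries, which share libraries and depth. Cdk4 was matched most closely, by Brix1 (Pearson r of log2 levels 0.97), Pa2g4 (0.97) and Nop58 (0.97). Ccne2 was matched by Anln (0.95), Cenpk (0.93) and Mcm10 (0.93), and Cdkn2c by Neil3 (0.93), Ncapg (0.92) and Esco2 (0.91). Cdk6 came closest to Patz1 (0.91), Utp11 (0.89) and Pum3 (0.89), and Ccne1 to Fen1 (0.86), Acp1 (0.86) and Josd2 (0.86). Further top matches were Ppp1cb for Ccnd3 (0.85), AU020206 for Ccnd2 (0.81), Hist1h1c for Cdkn2d (0.81) and Pltp for Ccnd1 (0.78). Among the 10 genes themselves, Ccne2 and Cdkn2c (0.82) and Ccne1 and Ccne2 (0.80) ran most closely together, and Ccnd2 and Ccnd3 ran most nearly opposite (-0.61).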

How the data were processed

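The deposited files hold whole-number UMI counts per gene and cell barcode, which the authors produced (Cell Ranger 6.0.0, per the file headers) from Chromium 3′ (v2) libraries per the labels' protocols. The submitters' processing notes also name Seurat and the builds GRCm38 and mm10, without roles. Ambient RNA removal is not given in the sources used here.

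Cells with at least 500 UMIs, at least 200 genes and under 10% mitochondrial UMIs were kept, 15461 in the control library and 12896 in the MYC library. Doublets were scored with Scrublet in scanpy 1.11.5. Its automatic threshold marked 2 cells of the MYC library, so the control library's threshold of 0.191 was used for both, which removed 602 (3.89%) and 382 cells (2.96%), where loading predicts 13.7% and 11.6%. Many doublets therefore probably remain. The libraries shared 97 of their deposited barcodes.

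Both libraries were clustered together (2000 variable genes without the 10 genes, 30 principal components, 15 neighbours, Leiden resolution 1). A cluster was named only with at least 3 detected markers and leading genes that did not go against the name. The details of this naming rule, and the rule for low-UMI clusters, were set after seeing the data. A cluster of low-UMI barcodes (2443 and 2574 cells) and 2 small unnamed clusters entered no class.

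UMIs were summed per class and library and divided by the class total (CPM). Levels carry exact Poisson intervals, shares exact Clopper-Pearson intervals, and ratios exact conditional binomial intervals, all 95% and for counting error only. Ratios were called from 1.5-fold upward among genes with at least 50 UMIs over both libraries. The script was tested on simulated data. Gene positions came from GENCODE vM21, to which 32158 features (99.6%) matched. All 10 genes are named. Other pathway genes are named where the ratio passed 1.5-fold and its interval excluded 1, and like-pattern genes are the 3 with the highest correlation of log2(CPM + 1) for each gene, of which those for Cdkn1b are not reported here. The members and lists were chosen with earlier results of these data known. Alternatives tried were other cell filters, doublets kept, other resolutions, separate clustering, other scalings, folds and UMI minimums, and other division thresholds.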

Additional observations from a re-analysis of the deposited data

Results flagged for a closer look

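Ccnd2 differed in opposite directions between the libraries in 2 classes. In erythroblasts its log2 ratio of the MYC library over the control was 1.43 (0.88 to 1.97), on 69 and 52 UMIs. The control level there, 6.29 CPM, is not clearly above what free RNA could give, since S100a8 stood in the same cells at 4001 CPM against 44669 CPM over all kept cells, and Ccnd2 at 76.1 CPM over all kept cells. In mature neutrophils it was -1.07 (-1.29 to -0.86), on 535 and 264 UMIs, and the MYC library level there, 14.8 CPM, is not clearly above free RNA. With 1 library per genotype the difference between the classes was not tested. The value in mature neutrophils turned to 1.63 in cluster 3 alone, the cluster that both libraries filled, at levels of 2.76 and 8.57 CPM that free RNA could give.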

How the results depend on the processing

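No paired analysis was possible because each genotype had 1 library and no value came from a test. Over the 10 named classes, 9 pairs of a gene and a class were at least 1.5-fold higher and 18 lower in the MYC library, and of 225 pairs of the pathway list 9 were higher and 58 lower. Among all genes 4.36% to 12.2% were higher and 12.7% to 30% lower in these classes. Clustering each library on its own gave 11 lower. Median-of-ratios scaling gave 16 higher, and 17 higher and 34 lower for the pathway list. A fold of 2 gave 2 higher and 8 lower, and a minimum of 200 UMIs 11 lower. The 113 ratios followed were the 109 of the 10 genes and those of Cdkn1a in erythroid progenitors, erythroblasts, monocytes and granulocyte progenitors. In these classes Cdkn1a had passed 1.5-fold. Of the 113 ratios, 73 had an interval that excluded 0, of which 54 kept their sign in every alternative run for them and 19 turned in some. The splits by division transcripts and by cluster 3 were chosen after seeing the data. Stem or multipotent progenitors could not be named at resolution 0.5, with at least 1000 UMIs, or in each library alone. Clusters 2 and 20 had only the scaling and division alternatives. The cause of each turned value was not tested. At this depth 11 of the 120 pairs fell short of 50 UMIs and were not compared.

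Turned log2 ratios were as follows. With under 5% mitochondrial UMIs, Ccnd2 was 0.63 in granulocyte progenitors and -0.16 in monocytes, Cdkn2c 0.087 in monocytes, and Cdk4 -0.013 in erythroblasts. With doublets kept, Ccnd2 in mature neutrophils was 0.93. At resolution 2, erythroblasts had Ccnd3 at 0.24, Cdk4 at -0.67, Ccne1 at 2.21, Ccne2 at 1.83 and Cdkn2c at 1.198, and the control level of Ccnd3 in erythroblasts was -0.14 against the median of the other classes. With each library clustered on its own, Ccnd2 was 0.13 in mature neutrophils and -3.26 in monocytes, Ccnd3 0.14, Cdk4 -0.30 and Cdkn2c 0.22 in monocytes, and Ccnd3 0.37, Ccne1 1.18, Ccne2 0.067 and Cdkn2c 0.46 in erythroblasts. With median-of-ratios scaling, Ccnd2 was 0.11 in granulocyte progenitors, Ccnd3 0.020 and Cdkn2c 0.065 in immature neutrophils, and Ccnd3 0.050 in monocytes. As a mean over cells, Cdkn2c in mature B cells was 0.21. In cells with many division transcripts, Cdk4 in granulocyte progenitors was -0.18. In cells with few, Cdkn2c was 0.15 in granulocyte progenitors, 0.53 in immature neutrophils, 0.086 in monocytes and 0.089 in erythroid progenitors, and Ccne2 was 1.04 in immature neutrophils and 0.49 in monocytes. In cluster 3 only, Ccnd2 was 1.63. With the division threshold at 1%, the log2 ratio of cells with many over those with few division transcripts was, for Ccne1, -0.95 in immature neutrophils of the MYC library and -0.26 and -0.48 in monocytes of the control and MYC libraries, and for Ccne2 -3.25, -0.50 and -2.43 in the same order.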
